A study of Mus musculus with 28 samples.

Results

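The nuclear genes for the subunits of the mitochondrial respiratory chain and ATP synthase were followed through 3 genotypes of the mouse vitamin D receptor gene, Vdr, in the duodenum and the kidney cortex. Genes were taken by symbol: those beginning with Ndufa, Ndufb, Ndufc, Ndufs or Ndufv and a digit, the 4 Sdh subunit genes, Uqcr, Cox followed by a digit of the subunit series, and Atp5. Symbols containing "-ps" were dropped. A mean of at least 1 CPM (tag counts scaled to the TMM-adjusted library total) over the 14 libraries of a tissue was required. In duodenum 79 of 87 matching symbols were kept, out of 31179 in the whole table, and in kidney 81 of 88, out of 30227. The expression filter of the test passed 78 and 80 of them, and 78 symbols were members in both tissues.

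The mice were 8-week-old females kept on the diet TD.96348, which supplies much calcium, phosphate and lactose and was given to wild-type and mutant animals alike. Wild-type mice (WT, Vdr+/+) gave 6 libraries per tissue. Mice without the receptor (KO, Vdr-/-) gave 4, and mice whose receptor lacks activation function 2, the surface that recruits coactivators (AF2), gave 4, so that 28 libraries were used. The study asked how a receptor that signals without coactivators differs from no receptor in mineral homeostasis. Strain, litter and the extent of the deletions are not stated in the labels, which also do not say that libraries of a group came from separate animals, so p-values measure the spread between these samples. The comparisons of KO and of AF2 with WT share the same WT libraries.

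Oxidative phosphorylation is carried out by 5 protein complexes of the inner mitochondrial membrane. Complex I (Nduf genes) takes electrons from NADH and complex II (Sdh genes), an enzyme of the citric acid cycle, takes them from succinate. Complex III (Uqcr genes) passes them to cytochrome c, and complex IV (Cox genes), cytochrome c oxidase, passes them to oxygen. Complex V (Atp5 genes) is the ATP synthase, driven by the proton gradient that complexes I, III and IV build up. All complexes but II also hold subunits encoded in mitochondrial DNA, and several subunits of complexes IV and V have paralogs with a preferred tissue. Proximal tubule cells of the kidney and absorptive cells of the gut both depend on mitochondrial ATP to power ion and nutrient transport.

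Duodenal libraries held 3713352 to 25181916 counts, all but WT 2 at most 6519522, and kidney libraries 3725648 to 6492228. The members together took 3.08 to 3.65% of the counts of a duodenal library and 2.82 to 3.48% of those of a kidney library. The level of Vdr in duodenum was 262.8 to 652 CPM (WT), 95.8 to 119 CPM (KO) and 359 to 435 CPM (AF2), and in kidney 177 to 211, 7.91 to 21.8 and 64.4 to 91.8 CPM. The libraries read transcript 3' ends, so a tag outside the deleted part would be counted in KO too. The 12 enterocyte markers summed to 16114 to 33582 CPM in WT duodenum against 336 to 448 CPM in WT kidney. The 9 proximal tubule markers summed to 17143 to 21792 CPM in WT kidney, while the 8 listed in the duodenal table summed to at most 13.2 CPM there. In bulk tissue, fewer cells of a type and less RNA per cell cannot be told apart.

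One library, kidney AF2 4, stood apart among the members. Of the 75 members with at least 20 CPM in kidney, 10 lay at least 2-fold below the median of the other 13 libraries, which is 13.3% of them against 5.76% of 6146 genes of that level. In each of the other 13 kidney libraries the count was 0 of 75. In the comparisons of AF2 kidneys, calls, medians and counts of members without overlap are therefore also given without it. So are the estimates of single members that it moved by over 1.5 times. Genes outside the members and marker lists are given with AF2 4 included.

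**Figure D1:**
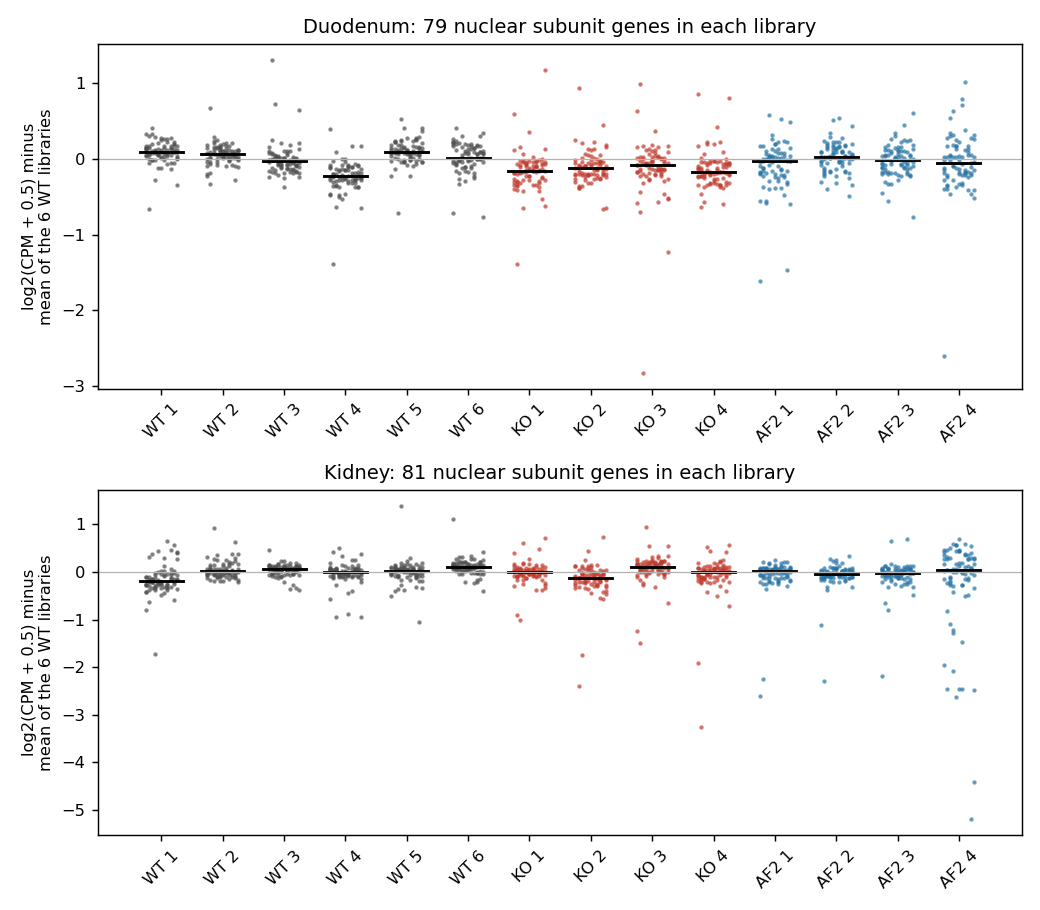
Each point is 1 subunit gene in 1 library: log2(CPM + 0.5) minus its mean over the 6 WT libraries, for 79 genes in duodenum and 81 in kidney, with WT in grey, KO in red and AF2 in blue. Black bars are library medians. WT 4 lies lowest among the duodenal libraries, with a median below those of the 4 KO libraries, and kidney AF2 4 has a tail of low genes with a median near 0.

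By mean level in duodenum the highest member of each complex was Ndufa5 (602.9 CPM) in complex I, Sdha (495 CPM) in complex II, Uqcrh (915 CPM) in complex III, Cox6a1 (1765 CPM) in complex IV and Atp5g3 (3533 CPM) in complex V. In kidney these were Ndufb8 (590.1 CPM), Sdhb (621 CPM), Uqcrh (675 CPM), Cox6c (1393 CPM) and Atp5g3 (2424 CPM). Tags are counted at 3' ends and were not scaled by length. How evenly the ends of different genes were counted was not tested, so no ranking of transcript numbers is drawn from these values. Atp5g3 encodes the membrane ring subunit of ATP synthase, and Uqcrh encodes the hinge subunit of complex III. At the threshold, Cox6c2, Ndufs6b and Cox6b2 lay just inside it in duodenum with 1.03, 2.60 and 3.40 CPM, and Atp5g2, Cox8b and Ndufa11b just outside it with 0.841, 0.432 and 0.315 CPM. In kidney Cox6c2, Ndufa4l2 and Cox8b were just inside (1.53, 2.17 and 2.41 CPM), and Ndufs6b, Cox4i2 and Atp5g2 just outside (0.843, 0.68 and 0.509 CPM). Cox6c2 and Ndufs6b are annotated as processed pseudogenes, and reads of such near-identical copies may be split from the parent gene. The dropped symbol Ndufb1-ps was well expressed, with 104 CPM in duodenum and 175 CPM in kidney.

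In the duodenum of KO mice no member passed the test (edgeR's quasi-likelihood test with Benjamini-Hochberg adjustment over all genes, called at an adjusted p under 0.05), which called 0.0226% of all genes. DESeq2 called no member either. The members nonetheless lay mostly on 1 side: 65 of 78 estimates were below 0, against 50.4% of all genes, and the median log2 fold change was -0.13 against -0.004 over all genes. At an unadjusted p under 0.05 there were 11 members, all lower, which is 14.1% of those tested against 6.53% of all genes lower at that threshold. The medians by complex were -0.11 for I, -0.18 for II, -0.12 for III, -0.14 for IV and -0.11 for V. Every complex was thus on the same side, by about the same amount, with no gene passing.

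Per library, the median log2(CPM + 0.5) level of the members relative to the WT mean was 0.08, 0.05, -0.05, -0.24, 0.07 and 0.005 in WT 1 to WT 6. It was -0.17, -0.14, -0.09 and -0.18 in KO 1 to KO 4, and -0.04, 0.02, -0.04 and -0.07 in AF2 1 to AF2 4. All 4 KO libraries lay below 5 of the 6 WT libraries and above WT 4, so the groups overlapped. The summed level of the members was 34694 ± 2863 CPM (SD, n = 6) in WT, 31070 ± 780 CPM (SD, n = 4) in KO and 33462 ± 1229 CPM (SD, n = 4) in AF2.

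The library codes in the labels fall into 3 runs of consecutive numbers, and WT 3 and WT 4 share a run with the 4 KO libraries. With the run as a block, the median of the members was 0.005 in KO against WT. Within the shared run WT 3 (-0.05) lay above all 4 KO libraries and WT 4 (-0.24) below them. What a run stands for is not given in the labels, and run and genotype could be separated only through those 2 WT libraries. Without WT 4, in the fit without the block, the median was -0.16.

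Of single genes, Ndufa8, an accessory subunit of complex I, had the smallest p in KO duodenum. It measured 191, 184, 180.4, 179.5, 166 and 198 CPM in WT and 144, 140, 163 and 117 CPM in KO (log2 fold change -0.36 ± 0.11 (SE), adjusted p 0.196 by edgeR). Every KO library was below every WT library, which held for 2 of 78 members and for 1.23% of all genes in that direction. Uqcrfs1, the Rieske iron-sulfur protein of complex III, was 337 to 670 CPM in WT with a median of 555, and 344, 337, 366 and 507 CPM in KO. Its log2 fold change was -0.45 ± 0.15 (adjusted p 0.256 by edgeR), and the groups overlapped through WT 4, the lowest WT library. Without WT 4 it was -0.55 with an adjusted p of 0.0235. That was the only pass among 14 fits that each left out 1 library, with adjusted p up to 0.526 by edgeR. Among the members with the smallest p were also Atp5md, Ndufa1, Atp5h, Cox6a1 and Atp5g3, all with lower estimates of -0.22 to -0.35 and adjusted p of 0.221 to 0.401. Atp5md and Atp5h belong to the membrane and stalk parts of ATP synthase, and Ndufa1 is an accessory subunit of the membrane arm of complex I.

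Sdhd, a membrane anchor of complex II, varied widely from library to library. It was 134, 118, 168, 78.9, 61.7 and 84.4 CPM in WT duodenum, 88.8, 79.2, 13.9 and 68.2 CPM in KO, while AF2 libraries had 68.9, 104, 69.0 and 148 CPM. KO 3 stood far below the rest, and the estimate of -0.77 ± 0.46 (SE) for KO against WT, the lowest of the members tested, did not pass (adjusted p 0.561 by edgeR).

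Markers of cell types differed alongside. The enterocyte markers summed to a median of 28015 CPM in WT (16114 to 33582), 19535 CPM in KO (16288 to 20821) and 20070 CPM in AF2 (16445 to 24376), with 12 of 12 estimates below 0 in KO, a median of -0.41 and none called. WT 4 held the lowest WT value, as it did for the members. Paneth markers summed to a median of 3318 CPM in WT (2283 to 4128), 6430 CPM in KO (3953 to 8187) and 5103 CPM in AF2 (2589 to 7091), with 7 of 7 estimates above 0 in KO and a median of 0.94. The 10 crypt markers had a median of 0.39 in KO, again with none called. The part of these cell types in the members' values was not tested.

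In AF2 duodenum the estimates of the members lay about equally above and below 0. None was called against WT by edgeR (0.0677% of all genes were). The median was -0.005, and 41 of 78 estimates were below 0, against 50% of all genes. DESeq2 called 3 members. The share of all genes that DESeq2 called is not given for this or the other comparisons, so its counts have no background beside them. At an unadjusted p under 0.05 there were 4 members higher and 7 lower, 14.1% together against 11.8% of all genes. With the run of library codes as a block the median of the members was -0.08, and none was called.

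Ndufs6, an accessory subunit of complex I at its iron-sulfur arm, was 299.9, 309, 311, 353, 352 and 267 CPM in WT and 452, 379, 425 and 409 CPM in AF2. All 4 AF2 libraries lay above all 6 WT libraries (log2 fold change 0.42 ± 0.11 (SE), adjusted p 0.11 by edgeR, 0.0128 by DESeq2). Exons of Ndufs6 overlap Mrpl36 on the other strand, and the use of strand in counting is not given. Uqcrc1, a core protein of complex III, was 402, 417, 322, 310, 447 and 378 CPM in WT and 561, 458, 449 and 584 CPM in AF2, without overlap (0.45 ± 0.12, adjusted p 0.11 by edgeR, 0.0205 by DESeq2). Uqcrfs1 of the same complex had the opposite sign, with 350.1, 416, 311 and 369 CPM in AF2 (-0.56 ± 0.15, adjusted p 0.131 by edgeR, 0.036 by DESeq2). Its AF2 libraries overlapped with WT 4 alone. Without WT 4, Ndufs6 and Uqcrfs1 passed edgeR's test at adjusted p of 0.0286 and 0.0122. Each passed in only 1 of the 14 fits that left out 1 library, with adjusted p up to 0.315 and 0.409.

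Cox7a2l, which helps to join complexes III and IV into supercomplexes, was 104 to 122 CPM in WT with a median of 115, and 133, 133, 132 and 185 CPM in AF2 (0.37 ± 0.11, adjusted p 0.191 by edgeR). AF2 4 stood above the rest, and without it the estimate was 0.23 (adjusted p 0.577). Ndufs6, Uqcrc1 and Cox7a2l were the 3 members higher in AF2 than in WT without overlap, 3.85% of those tested against 1.32% of all genes, and 0 were lower without overlap (1.32% of all genes). Smooth muscle markers moved too, with 8 of 8 estimates above 0, a median of 0.48 and none called; their part was not tested. The remaining members by smallest p were Cox6a1, Ndufa6, Atp5k and Atp5h, between -0.28 and 0.24.

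Between the mutants, AF2 duodenum lay above KO in 60 of 78 members and below it in 18, against 50.4% of all genes below, with a median of 0.10. None was called by edgeR (0.015% of all genes were) and 1, Ndufs6, by DESeq2. In 16 members every AF2 library exceeded every KO library, 20.5% of those tested against 3.59% of all genes, and none was lower without overlap (2.98%). At an unadjusted p under 0.05 there were 12 members higher and 2 lower, 17.9% against 9.98%. Smooth muscle markers were higher in the same direction, with 8 of 8 estimates above 0, all 8 at an unadjusted p under 0.05, a median of 0.53 and none called. They summed to 1401 to 1772 CPM in AF2 and 1066 to 1234 CPM in KO, without overlap, and their part in the members' values was not tested. Ndufs6 (0.46 ± 0.12 (SE), adjusted p 0.147 by edgeR) was 279 to 319 CPM in KO. Uqcrc1 (0.42 ± 0.13, adjusted p 0.225) was 361 to 408 CPM in KO. Ndufa11, Atp5md, Ndufb10 and Ndufa5 followed at 0.29 to 0.35 with adjusted p of 0.274 to 0.374. KO and AF2 libraries share no run of library codes, and with the run as a block, where they meet only through WT, the median of the members was -0.09. Ndufs6b had a large estimate of -1.60 (adjusted p 0.358) on KO levels of 4.06, 2.50, 4.20 and 4.96 CPM and AF2 levels of 0.488, 2.72, 1.71 and 0 CPM, which overlapped.

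**Figure D2:**
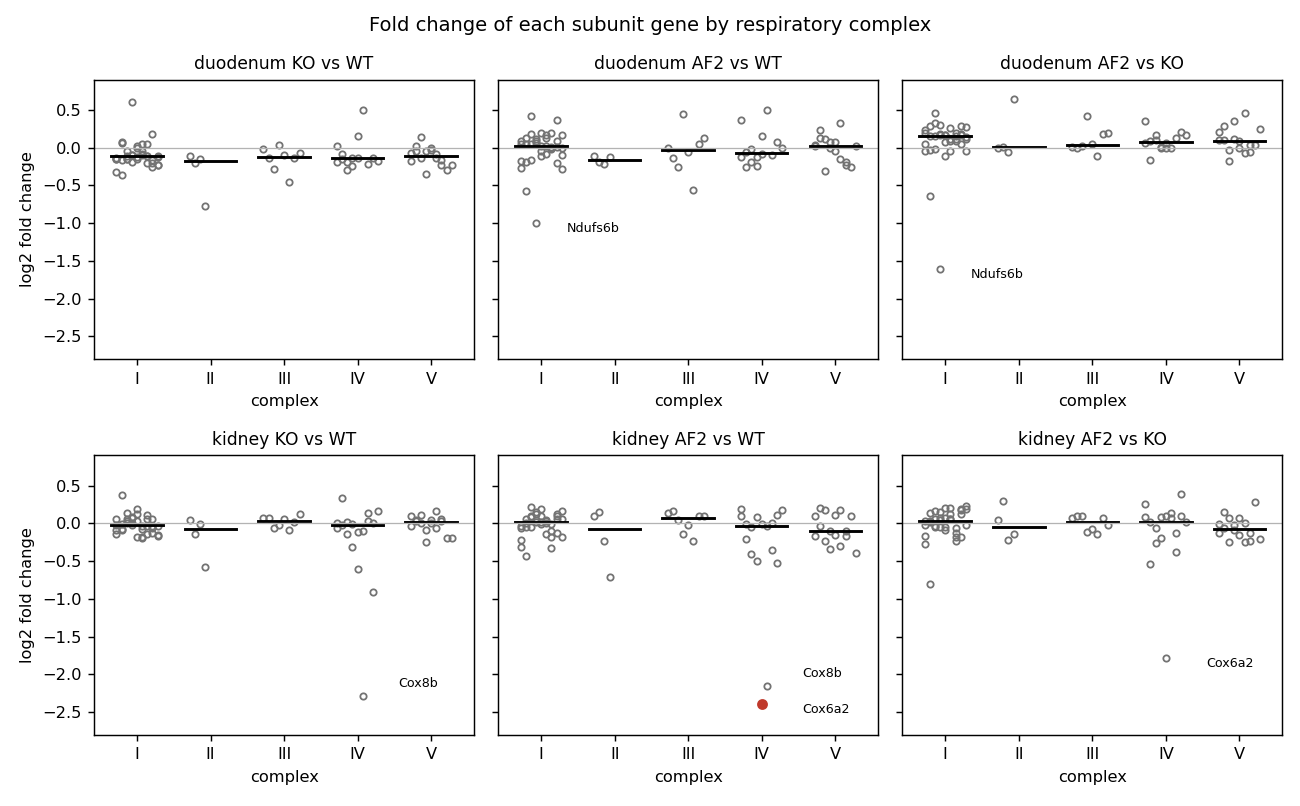
Log2 fold change of each tested member in the 6 genotype comparisons, with complexes I to V along the x axis. Open grey points did not pass, the filled red point is the 1 called member, and black bars are the medians of the complexes. Most members lie within 0.5 of 0, and the low points in kidney are Cox6a2 and Cox8b of complex IV.

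In the kidney the members as a group did not shift. In KO the median was -0.009 (all genes -0.004), 42 of 80 estimates were below 0 (50.6% of all genes) and none was called by edgeR, against 0.844% of all genes, and 1, Cox8b, by DESeq2. Only 2 members had an unadjusted p under 0.05, which is 2.50% against 10.5% of all genes. In AF2 the median was -0.01 (all genes 0.005), with 41 of 80 below 0 (49.4% of all genes), 4 at an unadjusted p under 0.05 (5% against 14.5%) and 1 member called (1.25% against 2.71% of all genes, or 1.63% counting lower genes). The summed level was 31398 ± 2339 CPM (SD, n = 6) in WT, 31230 ± 2016 CPM (SD, n = 4) in KO and 31338 ± 558 CPM (SD, n = 4) in AF2. The standard error of a member was 0.11 on the log2 scale at the median in both comparisons with WT.

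The called member was Cox6a2, the form of cytochrome c oxidase subunit VIa known from heart and skeletal muscle (GRCm38 chr7:128205435-128206387, minus strand). It was 3.02, 7.09, 7.93, 3.65, 3.82 and 12.7 CPM in WT kidney. It was 7.60, 6.15, 2.09 and 1.13 CPM in KO, while AF2 libraries had 0.502, 2.34, 0.838 and 1.09 CPM. Every AF2 library lay below every WT library, while KO overlapped with both.

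Cox6a2 thus fell in AF2 against WT by 2.39 ± 0.57 (SE) on the log2 scale (adjusted p 0.0167 by edgeR). The groups held 90 and 11 reads, and WT exceeded AF2 5.21-fold relative to the TMM-adjusted library totals (95% interval 2.78 to 10.8, counting error only). The call was lost on leaving out AF2 1 (adjusted p 0.0764), AF2 3 (0.0722) or AF2 4 (0.0537), in limma-voom (0.114) and with the code run as a block (0.0687), at estimates of -2.18 to -2.77. Over the 10 settings other than left-out libraries the adjusted p was 4.61e-05 to 0.114 and DESeq2 called it too. The last exons overlap Itgad on the other strand, which itself had 3 reads over the 14 kidney libraries.

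Cox8b, the muscle form of subunit VIII (chr7:140898945-140900446, minus strand), was low in both mutants. It measured 2.58, 4.61, 3.97, 5.85, 4.29 and 4.96 CPM in WT kidney, 2.03, 0.41, 1.20 and 0 CPM in KO, while AF2 libraries had 0.502, 0.467, 2.51 and 0.362 CPM. All 8 mutant libraries lay below all 6 WT libraries, and 1 KO library held no read. AF2 3 (2.51 CPM) and WT 1 (2.58 CPM) nearly touched, with 6 reads each. Cox8b was the 1 member of 80 without overlap in KO, where 1.75% of all genes were lower in that way.

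For Cox8b the log2 fold change was -2.29 ± 0.63 (SE) in KO (adjusted p 0.0815 by edgeR) and -2.15 ± 0.63 in AF2 (adjusted p 0.06). Neither passed, on 64 reads in WT and 9 in each mutant group, and both passed in DESeq2 at 0.0115 and 0.0103. Of the 10 settings other than left-out libraries, 4 passed in each mutant. The adjusted p by edgeR, DESeq2 or limma-voom reached 0.374 in KO and 0.245 in AF2. Leaving out AF2 4 gave -1.86 with an adjusted p of 0.165 in AF2, and leaving out AF2 3, the highest of the 4, gave -3.25 with 0.0152. In KO, leaving out KO 1, the highest of the 4, gave -2.90 with 0.0368, and leaving out KO 4, which held no read, gave -1.89 with 0.30. The KO estimate also passed when AF2 4, which shares the fit, was left out (-2.29, adjusted p 0.0455).

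Markers of muscle, chosen after these values were seen, were low in kidney. Of the 5 skeletal muscle markers Ckm, Tnnc2 and Mb had 0 reads in all 14 libraries, Acta1 had 6 and Myl1 4, and the list summed to 0 to 0.862 CPM in WT, 0 to 0.41 CPM in KO and 0 to 0.935 CPM in AF2. Of the 5 heart muscle markers Actc1 had 0 reads, but Myl7 had 30 in 13 libraries, Tnnt2 21 in 8, Myh6 9 and Tnni3 8, against 82 reads for Cox8b. That list summed to 0.709 to 5.52 CPM in WT, 1.51 to 2.69 CPM in KO and 0 to 4.34 CPM in AF2. The 6 fat markers summed to 0.721 to 12.5 CPM in WT, 1.51 to 3.59 CPM in KO and 1.26 to 20.6 CPM in AF2. Among them Cfd had 98 reads in all 14 libraries, 23 of them in AF2 1, while Ucp1 had 30 in 7 libraries and Adipoq 21 in 8. The groups overlapped for each of these 3 lists. In the AF2 kidney intercalated cell markers summed to 366 to 465 CPM against 226 to 318 CPM in WT, and podocyte markers to 361 to 461 CPM against 232 to 299.6 CPM, without overlap of the groups. AF2 4 held the highest AF2 value of both lists, and the other AF2 libraries reached at most 404 and 389 CPM. Thick ascending limb markers were 3703 to 4231 CPM against 2583 to 3299 CPM, and proximal tubule markers 13593 to 17853 CPM against 17143 to 21792 CPM. Which cells carry Cox6a2 and Cox8b, and the part of these shifts in their values, was not tested.

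**Figure D3:**
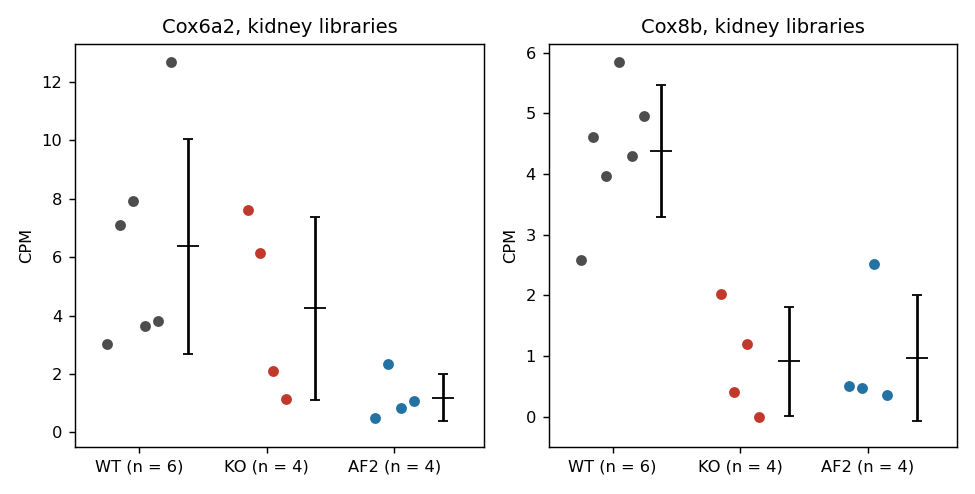
CPM of Cox6a2 (left) and Cox8b (right) in the 14 kidney libraries; points are libraries, and the bar beside each group is its mean ± SD. AF2 lies below WT in both panels without overlap, and KO does so for Cox8b.

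Cox6a1 and Cox8a are the widely expressed forms of the same 2 subunits. In AF2 kidney their log2 fold changes were 0.08 ± 0.09 (SE, adjusted p 0.744 by edgeR) and -0.01 ± 0.11 (0.977), and in KO -0.003 ± 0.09 (0.994) and -0.11 ± 0.11 (0.784). The others of the 8 smallest p in AF2 against WT were Ndufb6, Atp5g1, Atp5c1, Ndufb8, Cox7a2 and Atp5pb, with estimates of -0.30 to 0.21 and adjusted p of 0.252 to 0.437. Without AF2 4, Ndufb8 moved from 0.21 to 0.07 and Cox7a2 from 0.20 to 0.10. Ndufb6, an accessory subunit of complex I, was 216, 228, 220.3, 222, 226 and 250.4 CPM in WT and 189.7, 197, 209 and 186 CPM in AF2. These groups did not overlap, as for 3 members in all (3.75% against 2.33% of all genes lower, and 3 members against 3.71% of all genes without AF2 4), yet the difference of -0.22 ± 0.09 (SE) did not pass (adjusted p 0.252 by edgeR). In KO against WT the next members after Cox8b were Cox7a2l (0.34 ± 0.15, adjusted p 0.384), Ndufc2 and Ndufb2. Ndufa4l2, a paralog of Ndufa4, was 1.10 to 5.31 CPM in WT, 0.41 to 2.26 CPM in KO and 1.26 to 2.51 CPM in AF2, which overlap.

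AF2 and KO kidneys differed in no member that passed in edgeR or DESeq2 (0.333% of all genes were called), with a median of 0.008 and 8 of 80 members at an unadjusted p under 0.05 (11.5% of all genes). The groups did not overlap for 3 members, Atp5h, Ndufb6 and Ndufs1 (3.75% against 7.12%). Without AF2 4 the median was -0.009, none was called, and the groups did not overlap for 7.5% of the members, 1 higher and 5 lower, against 11.4% of all genes. Cox7a2l had the smallest p: the KO libraries had 49.2, 66.8, 72.1 and 67.4 CPM, the AF2 libraries 41.7, 42.5, 41.5 and 49.6 CPM, against 37.7 to 66.8 CPM in WT. The lowest KO library, KO 1, and the highest AF2 library, AF2 4, nearly touched, and the groups overlapped there, and the log2 fold change was -0.54 ± 0.16 (SE, adjusted p 0.153 by edgeR). Cox6a2 (-1.78 ± 0.61, adjusted p 0.224), Ndufb6 (-0.27 ± 0.10, 0.274) and Sdhb (0.29 ± 0.12, 0.314) followed. Sdhb was 0.17 without AF2 4 (adjusted p 0.624 by edgeR).

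The 10 members low in kidney AF2 4 came from every complex. Atp5md was 10.1 CPM there against a median of 410.3 CPM in the other 13 libraries, and Sdhd 6.88 against 127 CPM. Atp5j was 40.9 against 241 CPM, Ndufa1 59.0 against 344 CPM, Cox7c 7.24 against 43.2 CPM and Cox5b 15.2 against 65.2 CPM. Ndufa4, Ndufb3, Sdhc and Uqcrfs1 were 111, 104, 141 and 223 CPM against 308, 244, 322 and 468 CPM. These are single subunits of large assemblies: Ndufa4 sits in complex IV despite its name, and Atp5md and Atp5j in the membrane and stalk parts of ATP synthase. The summed level of the members was nevertheless 31849 CPM in AF2 4, within the range of the other kidney libraries, while other members were higher. Sdhb was 849 CPM against 496 to 679 CPM in the rest, and Ndufb8 was 824 CPM against 476 to 639 CPM. The last 100 bases of the transcripts of the 10 low members (GENCODE vM21) held a median of 30% G and C, against 43% in the other 65. Among the 10 the range was 23 to 60%, with Cox5b at 45% and Sdhc at 60%.

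Across the 75 members Spearman's rho between that GC content and the deviation of AF2 4 was 0.50, and across 6019 genes it was 0.41. These are descriptions across genes of 1 library, which are not independent. Of the 1313 genes with 28% GC or less, 14.7% lay at least 2-fold lower in AF2 4, and of the 1173 genes with 46% or more, 1.36%. With ends of 300 and 500 bases or the whole transcript, rho over all genes was 0.42, 0.39 and 0.35; the window and the fold were chosen after the data were seen. Without AF2 4 the AF2 minus WT estimates of these 10 genes moved toward 0, for example from -0.71 to -0.32 for Sdhd and from -0.33 to 0.07 for Atp5md, and none passed with or without it. Without AF2 4 the median of all members was -0.03 and 0 were called.

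**Figure D4:**
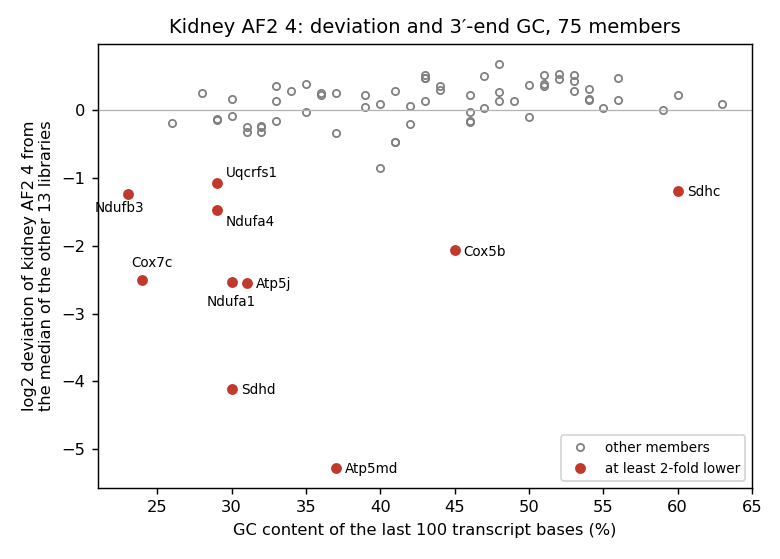
Deviation of kidney AF2 4 from the median of the other 13 kidney libraries (log2, y axis) against GC content of the last 100 transcript bases (x axis, %) for the 75 members of at least 20 CPM. The 10 members at least 2-fold lower are filled and named, and 7 of them lie at or below 31% GC.

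Many members differed between the tissues. In WT mice 55 of 77 members passed between kidney and duodenum, 34 higher and 21 lower in kidney, or 71.4%, against 69.9% of all genes (34.3% higher and 35.7% lower), so the share called is near the background. The median was 0.15 against -0.01 over all genes, and 0.08 without duodenal WT 4. Tissue and library preparation cannot be told apart here. Complex I leaned to kidney, with 20 of 35 members higher and 8 lower. In complex II 2 of 4 were higher, Sdhb and Sdhc, while complexes III (2 higher, 3 lower), IV (4 and 4) and V (6 and 6) were split. Sdhc passed narrowly (0.31 ± 0.14 (SE), adjusted p 0.0439 by edgeR), and its call was lost on leaving out any of 6 of the 12 libraries, duodenal WT 3, WT 4 or WT 5 or kidney WT 3, WT 5 or WT 6 (adjusted p 0.0519 to 0.116).

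Of the members tested in both tissues and higher in kidney, Cox6b2, the testis-type paralog of subunit VIb, differed most, with a median of 12.8 CPM in kidney (5.40 to 19.1) and 2.77 CPM in duodenum (1.32 to 4.24) on a scale common to both tissues. Its log2 fold change was 2.27 ± 0.33 (SE, adjusted p 1.05e-07 by edgeR). Ndufb4 of complex I had medians of 103 and 31.5 CPM and Atp5g1, 1 of the 3 genes for the ATP synthase ring subunit, 80.3 and 31.6 CPM, both without overlap. Ndufa13, Ndufb2, Sdhb, Ndufc2 and Atp5c1 completed the 8 largest, at 0.87 to 1.24. Sdhb, the iron-sulfur subunit of complex II, had medians of 649.9 and 354 CPM, without overlap.

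Of those lower in kidney, Cox7a1, the muscle-type paralog of subunit VIIa, had medians of 39.5 CPM in kidney (32.1 to 43.2) and 145 CPM in duodenum (101 to 209), a log2 fold change of -1.96 ± 0.14 (SE, adjusted p 4.27e-15 by edgeR). Atp5o, the stalk subunit once named for oligomycin sensitivity, had 599 and 1901 CPM (-1.64 ± 0.11), but its annotated exons overlap Donson on the same strand and the 2 cannot be told apart there. Cox7c, Atp5e, Cox7a2l, Atp5l, Atp5k and Atp5j2 followed at -0.83 to -1.20. Cox7a2, the other form of subunit VIIa, had medians of 817 CPM in kidney and 876 CPM in duodenum that overlapped (-0.11 ± 0.09, adjusted p 0.315).

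**Figure D5:**
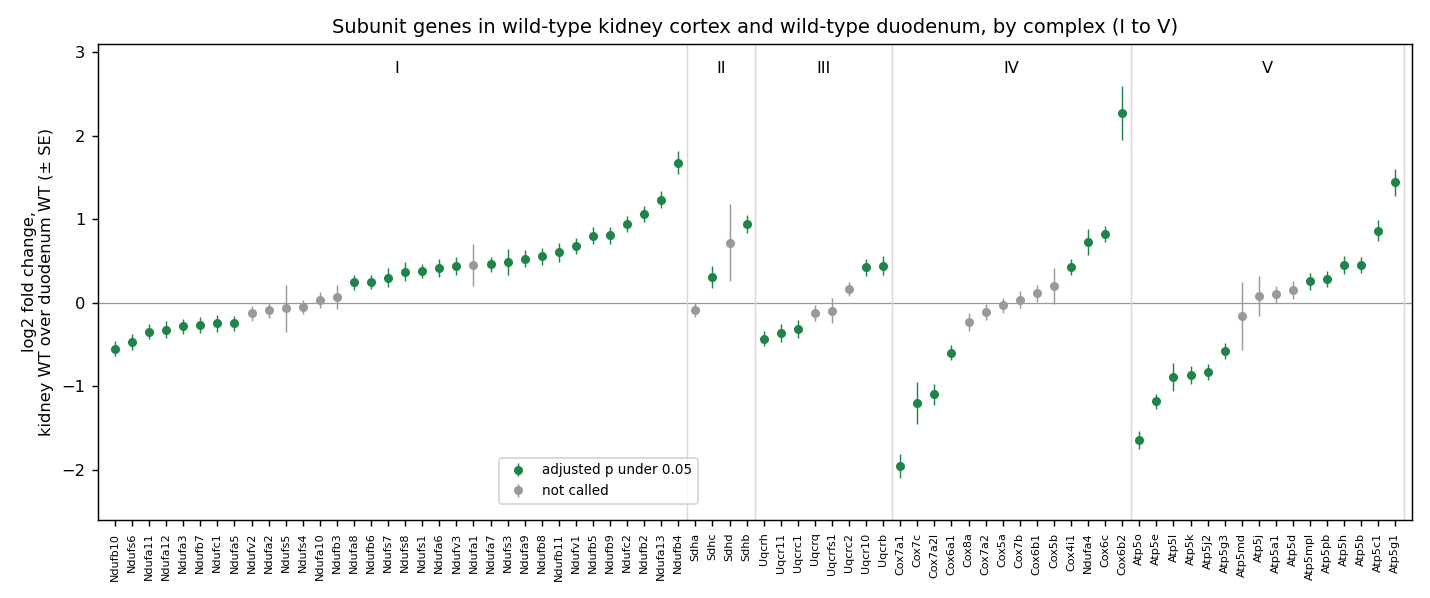
Log2 fold change of WT kidney over WT duodenum (± SE) for 76 of the 77 members tested in both tissues, ordered within complexes I to V. Green points passed at an adjusted p under 0.05 (33 above 0, 21 below) and grey points did not. Cox6b2 and Cox7a1 of complex IV mark the 2 ends.

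Paralogs of 1 subunit were then set side by side. Cox6a1 was higher in duodenum (-0.60 ± 0.09 (SE), adjusted p 2.12e-07 by edgeR), while Cox6a2 had 0 to 0.53 CPM in duodenum and 3.12 to 13.3 CPM in kidney on the common scale. Cox8a did not pass (-0.23 ± 0.11, adjusted p 0.0627), and Cox8b was 0.331 to 1.27 CPM in duodenum and 2.67 to 6.11 CPM in kidney. Cox6b1 was close in the 2 tissues (0.11 ± 0.10, adjusted p 0.329), where Cox6b2 was not. Atp5g3 was higher in duodenum (-0.57 ± 0.10, adjusted p 1.99e-06), opposite to Atp5g1, and Atp5g2 was under 1 CPM in both. Cox4i1, the regular form of subunit IV, was higher in kidney (0.43 ± 0.09, adjusted p 0.000118), and Cox4i2 was under the threshold in both. Ndufa4 was higher in kidney (0.73 ± 0.16, adjusted p 0.000125). Sdha, the flavoprotein of complex II, and Sdhd did not pass (-0.09 ± 0.09, adjusted p 0.357 and 0.72 ± 0.46, 0.166).

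Promoters are printed for members at the ends of these comparisons, with 2 that carry a motif of nuclear respiratory factor 1 (NRF1), a regulator of respiratory genes. Bases 250 to 1 before the RefSeq start (GRCm38.p6) are given 5' to 3' on the gene's strand. Capitals mark matches on either strand to the NRF1 palindrome or to CCGGAAG (the ETS family, which includes GABP), motifs chosen after the values were seen. RefSeq promoters were matched for 66 of the 82 genes that were members in either tissue, and none was found for Cox6a2. The start of 56 of the 66 was matched to a GENCODE transcript of the same symbol.
Cox8b (chr7:140900447-140900696, minus; below WT in all 8 mutant kidney libraries): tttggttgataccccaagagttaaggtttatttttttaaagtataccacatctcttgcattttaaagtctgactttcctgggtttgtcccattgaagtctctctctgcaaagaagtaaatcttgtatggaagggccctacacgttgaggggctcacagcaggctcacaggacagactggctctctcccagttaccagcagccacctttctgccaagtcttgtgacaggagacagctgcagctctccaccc
Cox7a1 (chr7:30183921-30184170, plus; highest in duodenum relative to kidney of the same 77): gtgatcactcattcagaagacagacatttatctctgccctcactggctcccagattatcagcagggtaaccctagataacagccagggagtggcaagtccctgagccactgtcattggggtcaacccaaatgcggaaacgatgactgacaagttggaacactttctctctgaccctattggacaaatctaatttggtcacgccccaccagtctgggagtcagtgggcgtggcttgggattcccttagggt
Cox6b2 (chr7:4753095-4753344, minus; highest in kidney relative to duodenum of the 77 members tested in both): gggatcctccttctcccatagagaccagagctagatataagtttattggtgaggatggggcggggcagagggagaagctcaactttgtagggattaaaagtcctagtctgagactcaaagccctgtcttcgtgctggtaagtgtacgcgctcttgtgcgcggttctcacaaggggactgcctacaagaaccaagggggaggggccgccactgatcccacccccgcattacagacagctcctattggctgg
Cox6a1 (chr5:115348959-115349208, minus; NRF1 and ETS letters): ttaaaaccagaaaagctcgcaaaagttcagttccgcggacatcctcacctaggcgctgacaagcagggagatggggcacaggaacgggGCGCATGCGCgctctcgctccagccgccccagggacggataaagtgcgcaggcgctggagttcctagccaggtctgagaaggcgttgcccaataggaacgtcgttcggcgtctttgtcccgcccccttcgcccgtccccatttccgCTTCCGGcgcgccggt
Atp5k (chr5:108434400-108434649, minus; NRF1 letters): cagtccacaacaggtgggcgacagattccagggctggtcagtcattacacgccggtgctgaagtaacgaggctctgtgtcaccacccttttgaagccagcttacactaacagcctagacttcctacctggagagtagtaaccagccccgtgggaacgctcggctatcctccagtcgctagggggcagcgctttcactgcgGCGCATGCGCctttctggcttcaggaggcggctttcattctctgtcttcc

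The promoters of Cox8b, Cox7a1 and Cox6b2 held none of the motifs searched in this window. Among the 66 promoters the NRF1 palindrome occurred in 3 (4.55%), Atp5k, Cox6a1 and Ndufa11, against 0.781% of 27025 promoters of the same length. ETS letters occurred in 11 (16.7%) against 7.05%. The nuclear receptor half-site AGGTCA occurred in 10 (15.2%) against 13.8%, and 2 such half-sites in the same direction 3 bases apart, the spacing the vitamin D receptor is known for, in 0 of 66 and in 2 of 27025. TCAAGGTCA, which holds AGGTCA and is the element of estrogen-related receptors, occurred in 1 (1.52%) against 0.366%, AAGATGGC (YY1) in 0 against 1.59%, and the MEF2 motif in 1 (1.52%) against 3.23%. A match describes these letters only.

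The genotype effects were then compared between tissues as an interaction. No member was called by edgeR for KO (0.0535% of all genes were) or for AF2 (0.381%), with 4 and 10 members at an unadjusted p under 0.05 (7.99% and 10.7% of all genes), and DESeq2 called 0 and 1. For KO the difference kidney minus duodenum had a median of 0.16 over the members and 0.04 over all genes, with 65 of 77 above 0 and 12 below, against 46.2% of all genes below. This holds the duodenal median, which was near 0 with the code run as a block. For AF2 the smallest p was that of Uqcrc1 (-0.57 ± 0.16 (SE), adjusted p 0.108 by edgeR), followed by Cox7a2l (-0.56 ± 0.19, adjusted p 0.218). Without kidney AF2 4 these were -0.65 (adjusted p 0.075) and -0.62 (0.196), and none was called. The median of the members for AF2 was 0.05, and 0.007 without kidney AF2 4.

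Other genes of the same pathway were compared in the same fits. The subunits encoded in mitochondrial DNA had medians of -0.10 in KO and -0.18 in AF2 duodenum and of -0.17 and -0.03 in kidney, with 0 of 8 tested genes called in each. In WT tissues they were higher in kidney, with 6 of 8 called, where 69.9% of all genes were called in either direction. Their median was 1.41, against 0.15 for the nuclear subunits. In kidney the 13 listed genes summed to 227310 to 249575 CPM in AF2 and 175478 to 214595 CPM in KO, without overlap. WT, at 173232 to 237206 CPM, overlapped with both. Of 46 assembly factors, which build the complexes, none passed in any genotype comparison with WT, and the median in KO duodenum was 0.006 where that of the subunits was -0.13. Citric acid cycle genes had a median of -0.17 in both duodenal comparisons with 0 of 13 called.

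In kidney single genes did pass outside the subunits. Acaa2, the last enzyme of mitochondrial fatty acid oxidation, was higher in KO (0.81 ± 0.15 (SE), adjusted p 0.0116 by edgeR) and in AF2 (0.75 ± 0.16, adjusted p 0.00793). Gabpb1, a subunit of the ETS factor GABP, was lower in AF2 (-1.03 ± 0.27, adjusted p 0.0302), as was Ldha of glycolysis (-0.86 ± 0.13, adjusted p 6.16e-05), while Hk1, which starts glycolysis, was higher (0.52 ± 0.12, adjusted p 0.0086). The AF2 kidney estimates in this paragraph include AF2 4, and values without it are not given. The 16 genes of mitochondrial biogenesis and mtDNA expression, Gabpb1 among them, summed to 488 CPM in AF2 4 and 524 to 614 CPM in the other AF2 kidneys. The mitochondrial ribosomal proteins had 1 of 75 called in AF2 kidney (Mrps6, 0.43 ± 0.10, adjusted p 0.0134) and 1 of 76 in AF2 duodenum (Mrpl34, 0.60 ± 0.12, adjusted p 0.0392).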

How the data were processed

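RNA from duodenum and kidney cortex was extracted with TRIzol and made into QuantSeq 3' libraries, per the labels' protocols. The deposited values are raw counts per gene symbol, 1 table per tissue. The submitters' processing notes name mm10 and limma 3.34.9, with no role. Which aligner and counter were run, and whether strand was used, is not given. Among the deposited values every count was even, so the read numbers given here are counts divided by 2. The tests used the counts as deposited. Counts divided by 2 were run as an alternative in edgeR, and not in DESeq2 or limma-voom. No pair of libraries was identical, and no column was left unused.

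Counts were filtered with filterByExpr, scaled by TMM and tested with edgeR 4.0.16 (quasi-likelihood test, all 3 genotypes of a tissue in 1 fit, Benjamini-Hochberg adjustment over all genes tested, threshold 0.05) in R 4.3.3. The tissue and interaction comparisons used 1 fit of all 28 libraries. DESeq2 1.42.0, limma-voom (limma 3.58.1), other scalings and filters, blocks and left-out libraries were alternatives. CPM are TMM-scaled. The scripts were tested on simulated data.

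Samples were grouped by genotype and tissue from the titles. Replicate numbers were not used to pair samples. Correlations of same-numbered deviations were -0.20 to 0.17, and 0.005 to 0.07 between WT kidney and WT duodenum. Library codes run in the same order in both tissues, and whether same-numbered kidney and duodenum came from 1 mouse is not stated. Such correlations cannot settle it, and the fit of all 28 libraries treated them as independent. The genes with the 8 smallest p in each comparison were named, with paralogs of 1 subunit; 1 gene is counted but not reported by name here. The members and lists were chosen with earlier results of these data known. Totals of 3713352 counts or more gave a median standard error of 0.10 to 0.12 on the log2 scale for comparisons of 2 groups.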

Additional observations from a re-analysis of the deposited data

Results flagged for a closer look

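Of 135 groups of values tested, 13 held 1 library far from the rest by Dixon's criterion, and chance gives about 1 in 20. In WT duodenum, WT 4 was low for summed complex III (3156 CPM, the others 3766 to 4067) and complex IV (6287 CPM, the others 7634 to 8359). In AF2 duodenum, AF2 4 was high for Cox7a2l (185 CPM, the others 132.4 to 132.8).

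In WT kidney, WT 1 was low for the median of the members (-0.20 on the log2 scale, the others -0.01 to 0.10) and for complex V (8504 CPM, the others 9964 to 10696). WT 2 was high for Ndufs8 (173 CPM, the others 136 to 149.6) and WT 6 for Ndufb6 (250.4 CPM, the others 216 to 228). In AF2 kidney, AF2 3 was high for Cox8b (2.51 CPM, the others 0.362 to 0.502).

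The other 5 were all high values of kidney AF2 4: complex I (9855 CPM, the others 8844 to 8903), Cox7a2l (49.6 CPM, the others 41.5 to 42.5), Ndufs8 (193 CPM, the others 132 to 139), Ndufb8 (824 CPM, the others 572 to 610.3) and Cox7a2 (1036 CPM, the others 806 to 843). Without AF2 4 the AF2 against WT estimates of Ndufb8 and Cox7a2 were 0.07 and 0.10, where they were 0.21 and 0.20 with it.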

How the results depend on the processing

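No result named here changed its direction while called. Members called moved from 0 to 3 in DESeq2, 2 with no filter on low counts and 1 with library totals only for duodenum AF2 against WT, to 1 in DESeq2 for AF2 against KO, and to 1 with no filter for KO against WT. In kidney KO against WT, 1 member (Cox8b) was called in DESeq2, with no filter, with counts divided by 2 and with only the 2 groups. In kidney AF2 against WT, 2 were called under those 4 settings, and 0 in limma-voom and with the code runs as a block. Among members of at least 10 CPM 0 were called, because that cut takes Cox6a2, the called member, off the list of the same fit. AF2 against KO gave 2 with no filter. The AF2 interaction gave 1 in DESeq2 and 1 with library totals only. Apart from the 10 CPM cut, the cause of these changes was not tested.

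Library totals only moved the median of all genes in duodenum by about 0.085. The members' median was then -0.0426 (all genes 0.0848) in KO and 0.0873 (all genes 0.0853) in AF2 against WT. In the KO and AF2 interactions it was 0.0708 (all genes -0.0501) and -0.0501 (all genes -0.0729). With the code runs as a block it was 0.00471 in duodenum KO against WT and -0.0929 in AF2 against KO.

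Leaving out 1 library gave 0 to 1 members called in duodenum KO, 0 to 2 in AF2 against WT, 0 to 1 in kidney KO, 0 to 2 in AF2 against WT, 0 in both comparisons of AF2 with KO, and 52 to 56 between tissues. The median ranged from -0.16 to -0.10 in duodenum KO, -0.03 to 0.03 in AF2 and 0.10 to 0.12 in AF2 against KO. In kidney it ranged from -0.06 to 0.01, -0.03 to 0.02 and -0.02 to 0.05, and between tissues from 0.08 to 0.20.

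With the replicate block, the genotype comparisons kept their counts of calls, with medians of -0.09, 0.04 and 0.10 in duodenum and -0.001, 0.01 and -0.001 in kidney, and 56 members were called between tissues, Sdhd among them (0.72, adjusted p 0.0215 by edgeR). Between tissues Sdhc lost its call in limma-voom (adjusted p 0.0727), with no filter (0.0512), with library totals only (0.064) and on leaving out any of 6 of the 12 libraries. Cox8a gained one in limma-voom (0.0305), with library totals only (0.0137) and on leaving out duodenal WT 3 or WT 4 or kidney WT 6, and Cox6b1 did on leaving out kidney WT 1 (0.0457). Members under about 10 CPM, such as Cox6a2 and Cox8b, rest on few reads, and for the median member a comparison of 2 groups had a standard error near 0.11.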
